A study of Mus musculus with 23 samples.

Results

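The genes described here are 10 genes that serve as markers of brain regions next to the hippocampus: Zic1, Zic2, Zic4, Isl1 and Lhx8 for the septum and basal forebrain, and Lef1, Prkcd, Synpo2, Ntng1 and Slc17a6 for the thalamus. They were selected by symbol from the 19733 genes of one table of hippocampal RNA sequencing, and all 10 were in it. The choice was made with values of these libraries in view, so their levels and their variation between mice are given as a description. The table holds 23 male C57BL/6J mice of wild-type genotype, which were 6 weeks old when the experiment began. Every mouse received a liquid AIN93M diet and a daily gavage for 16 weeks, and 1 week of behavioral tests followed. The 9 Ctrl mice were fed the control diet and gavaged with CMC-Na (0.05%), the carrier. The 7 EtOH mice were fed the ethanol diet with the same gavage, and the 7 EtOH-UA mice were fed the ethanol diet and gavaged with urolithin A (UA, a compound that gut bacteria make from ellagitannins) at 200 mg/kg/day in CMC-Na. Values are FPKM, fragment counts divided by transcript length and by library size, so that levels of different genes are compared per length. The table gives no read counts, and the number of mice limits the precision of each value.

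The hippocampus lies below the neocortex, with the septum in front of it, the thalamus beneath it, and the ventricle with its ependyma and the meninges along its surfaces. ZIC proteins are zinc-finger transcription factors of the septum and of midline structures of the brain, and they are also made by meningeal cells. ISL1 and LHX8 are LIM-homeodomain factors of the cholinergic neurons of the basal forebrain. In the thalamus, LEF1 is a transcription factor of the Wnt pathway, PRKCD is the delta isoform of protein kinase C, SYNPO2 binds actin, NTNG1 (netrin-G1) is an adhesion protein on thalamocortical axons, and SLC17A6 (VGLUT2) loads glutamate into synaptic vesicles. Some of these genes are also expressed by other cells, VGLUT2 in a part of the cortical neurons among them. In bulk tissue, fewer cells of a type and less RNA per cell cannot be told apart.

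In GRCm38, Zic1 spans chr9:91358058-91365768 on the minus strand and Zic4 spans chr9:91365631-91389351 on the plus strand, so that the ends of these neighbors share 138 bases. Zic2 spans chr14:122475384-122480328. Prkcd lies on the same chromosome at chr14:30595353-30626414. Isl1 spans chr13:116298270-116309688 and Slc17a6 spans chr7:51621830-51671126. The other members are on chromosome 3, with Ntng1 at chr3:109780050-110149972, Synpo2 at chr3:123076519-123236168, Lef1 at chr3:131110297-131224357 and Lhx8 at chr3:154306288-154330560. All are annotated as protein-coding genes, and all 10 gene identifiers matched RefSeq. The sources used here do not state that fragments were counted by strand, so fragments from the shared end of Zic1 and Zic4 cannot be assigned to 1 of them.

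Zic1, Zic2, Zic4, Prkcd and Synpo2 varied together between mice, and Ntng1 and Slc17a6 formed a separate pair, as described below. Promoter windows, from 250 bases before to 50 bases after a RefSeq start site on GRCm38.p6, are shown for Zic1, Zic4, Prkcd, Ntng1 and Slc17a6. They are given 5′ to 3′ on the strand of the gene, and capitals mark a match to CTTTGA, the core of the TCF/LEF motif, or its reverse complement. The windows are Zic1 chr9:91365719-91366018 (minus strand), Zic4 chr9:91368722-91369021 (plus strand), Prkcd chr14:30626159-30626458 (minus strand), Ntng1 chr3:110143423-110143722 (minus strand) and Slc17a6 chr7:51621580-51621879 (plus strand). For Prkcd and Slc17a6 the first of 2 windows listed is shown.
Zic1: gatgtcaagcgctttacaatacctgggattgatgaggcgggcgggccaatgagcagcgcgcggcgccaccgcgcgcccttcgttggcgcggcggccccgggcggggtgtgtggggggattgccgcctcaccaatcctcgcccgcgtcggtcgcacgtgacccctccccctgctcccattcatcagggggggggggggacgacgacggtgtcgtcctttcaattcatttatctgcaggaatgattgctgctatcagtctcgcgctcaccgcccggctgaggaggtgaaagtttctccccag
Zic4: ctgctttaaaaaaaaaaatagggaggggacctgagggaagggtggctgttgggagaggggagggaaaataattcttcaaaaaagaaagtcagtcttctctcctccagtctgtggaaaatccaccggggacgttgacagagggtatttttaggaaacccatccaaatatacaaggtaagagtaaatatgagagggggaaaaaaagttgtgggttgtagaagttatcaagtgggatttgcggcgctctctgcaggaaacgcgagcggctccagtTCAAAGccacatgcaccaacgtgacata
Prkcd: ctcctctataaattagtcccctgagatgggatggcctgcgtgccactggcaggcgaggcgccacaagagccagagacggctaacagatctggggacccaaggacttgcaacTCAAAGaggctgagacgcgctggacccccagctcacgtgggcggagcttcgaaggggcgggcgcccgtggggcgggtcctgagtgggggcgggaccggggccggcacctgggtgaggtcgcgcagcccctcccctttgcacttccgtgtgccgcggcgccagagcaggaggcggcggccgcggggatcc
Ntng1: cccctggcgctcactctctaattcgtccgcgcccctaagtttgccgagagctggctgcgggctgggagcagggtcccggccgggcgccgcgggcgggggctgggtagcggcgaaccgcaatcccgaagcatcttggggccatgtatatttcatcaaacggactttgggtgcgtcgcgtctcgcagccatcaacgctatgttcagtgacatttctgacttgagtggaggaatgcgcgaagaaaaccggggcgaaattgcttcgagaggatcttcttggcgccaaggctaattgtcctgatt
Slc17a6: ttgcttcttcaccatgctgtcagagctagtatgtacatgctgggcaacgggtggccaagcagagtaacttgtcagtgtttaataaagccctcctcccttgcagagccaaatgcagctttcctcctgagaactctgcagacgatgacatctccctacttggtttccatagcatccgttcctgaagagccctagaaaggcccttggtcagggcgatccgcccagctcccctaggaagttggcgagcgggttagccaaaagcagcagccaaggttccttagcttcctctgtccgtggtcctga

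The Zic1 window had a GC content of 65.3% and 31 CG dinucleotides and the Prkcd window 69.3% and 26, whereas the Zic4 window had 46.0% and 8. The Ntng1 window had 59.7% and 28, and the Slc17a6 window 53.7% and 8. Over all 32851 windows of the RefSeq table the medians were 52.7% and 7 CG dinucleotides. Synpo2, which varied with Zic1, Zic4 and Prkcd, had 57.3% and 17 in a window that is not shown. Among Zic1, Zic4 and Prkcd, 2 windows were thus rich in GC and 1 was not. The contrast holds for the start sites shown only. The Zic4 and Ntng1 windows lie inside the annotated spans of their genes and not at the outer ends. The GC-rich Zic1 window (chr9:91365719-91366018) itself lies within the span of Zic4 (chr9:91365631-91389351). CTTTGA was found once in the Zic4 window and once in the Prkcd window, and it was not among the letters of the Zic1, Ntng1 and Slc17a6 windows shown. It was present on either strand in 16% of all windows. CAGCAGG, a core of the ZIC motif searched on both strands, was in none of the 5 windows shown and in 10.5% of all windows. Of the windows not shown, 2 of the 4 of Lef1, which overlap each other, held CAGCAGG once each and another held CTTTGA at 2 places. The Synpo2 window held neither motif. No match to one motif overlapped a match to the other. Of the members, 9 had 1 or more windows in the table, 14 in all, and Zic2 had none.

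Ntng1 was the highest of the 10 genes and Lhx8 the lowest. The order of the mean FPKM over the 23 mice was Ntng1 (10.82 ± 1.31, SD), Prkcd (8.27 ± 2.25), Slc17a6 (6.08 ± 2.52), Zic2 (4.55 ± 1.19), Zic1 (3.70 ± 1.89), Lef1 (1.82 ± 0.379), Zic4 (0.969 ± 0.525) and Synpo2 (0.883 ± 0.177), with Isl1 and Lhx8 close to 0. Ntng1 exceeded Prkcd in 18 of 23 mice, and Prkcd exceeded Slc17a6 in 16. Slc17a6 exceeded Zic2 in 16 of 23 mice. Neighbors in the middle of the order changed places from mouse to mouse. The Zic genes kept their order more often, with Zic2 above Zic1 in 20 of 23 mice, Zic1 above Lef1 in 21 and Lef1 above Zic4 in 22. Zic4 and Synpo2 could not be ranked, since Zic4 was the higher in 12 of 23 mice. With a mean of at least 0.1 FPKM required, 8 of the 10 members were tested for differences between groups, and Isl1 and Lhx8 were not.

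The 2 LIM-homeodomain genes were near or at the lower limit of the table. Isl1 was listed at 0 in 7 of 9 Ctrl mice, in 0 of 7 EtOH mice and in 4 of 7 EtOH-UA mice. Its 12 values above 0 lay between 0.02, close to the resolution of 2 decimals, and 0.18 FPKM. The highest, 0.18, was reached by 1 Ctrl and 1 EtOH mouse, and the highest EtOH-UA mouse had 0.11. Lhx8 was listed at 0 in 21 of 23 mice and had 0.06 FPKM in 1 EtOH mouse and 0.03 in 1 Ctrl mouse. Of the other genes known from cholinergic neurons of the basal forebrain, some were as low and some were not. The mean FPKM was 0.0257 for Chat (choline acetyltransferase), 0.0313 for Slc18a3 (the vesicular acetylcholine transporter) and 0.0174 for Gbx1, and each was at 0 in 8 to 15 mice. Slc5a7, the choline transporter, had a mean of 0.219 FPKM and Nkx2-1, a homeobox factor of the ventral forebrain, 0.379, and neither was at 0 in any mouse. The thalamic factors Gbx2 (0.0257) and Shox2 (0.0817) were also under the limit. The 12 genes listed for the labelled tissue had means from 2.73 FPKM for Iyd to 104.4 for Neurod6, a gene of hippocampal pyramidal neurons. Prox1 of the dentate gyrus had 16.25. Iyd and Dsp (7.10) were below the means of Ntng1 and Prkcd.

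Zic1 differed 6.13 times between the lowest and the highest of the 23 mice. It ranged from 1.45 to 4.81 FPKM (Ctrl group, median 2.69), from 2.44 to 8.89 (EtOH group, median 3.63) and from 1.59 to 8.18 (EtOH-UA group, median 3.89). One EtOH and one EtOH-UA mouse stood above all others, and the ranges of the 3 groups overlapped. Zic4, the neighbor of Zic1, ranged from 0.27 to 1.37 FPKM (Ctrl group, median 0.66), from 0.60 to 2.06 (EtOH group, median 0.90) and from 0.34 to 2.15 (EtOH-UA group, median 1.13). The same EtOH mouse and the same EtOH-UA mouse were the highest. The ratio of Zic1 to Zic4 was 4.10 ± 0.934 (SD, n = 23), with a range from 2.88 to 7.00. Zic2 varied less, from 2.34 to 5.70 FPKM (Ctrl group, median 3.64), from 3.89 to 5.76 (EtOH group, median 4.58) and from 2.99 to 7.22 (EtOH-UA group, median 4.90). All 7 EtOH mice were above the Ctrl median of Zic2, although the ranges overlapped.

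Of the thalamic genes, Prkcd and Slc17a6 spanned wide ranges and Ntng1 a narrow one. Prkcd ranged from 4.66 to 11.12 FPKM (Ctrl group, median 6.99), from 5.82 to 12.65 (EtOH group, median 8.74) and from 6.32 to 12.91 (EtOH-UA group, median 8.48). Its highest mice in the EtOH and EtOH-UA groups were again those with the highest Zic1. Slc17a6 ranged from 2.47 to 10.47 FPKM (Ctrl group, median 5.98), from 2.58 to 9.44 (EtOH group, median 5.79) and from 3.54 to 9.99 (EtOH-UA group, median 6.04). The group medians of this vesicular glutamate transporter were nearly alike, while single mice within a group differed up to 4.24 times. Ntng1 ranged from 9.14 to 12.48 FPKM (Ctrl group, median 10.42), from 8.44 to 13.53 (EtOH group, median 11.24) and from 8.09 to 11.66 (EtOH-UA group, median 10.95). Lef1 ranged from 1.16 to 2.22 FPKM (Ctrl group, median 1.58), from 1.38 to 2.41 (EtOH group, median 1.84) and from 1.55 to 2.54 (EtOH-UA group, median 1.98). Synpo2, the lowest of the 8 tested members, ranged from 0.66 to 1.01 FPKM (Ctrl group, median 0.78), from 0.77 to 1.14 (EtOH group, median 0.92) and from 0.57 to 1.25 (EtOH-UA group, median 0.90). For each of the 5 genes the ranges of the 3 groups overlapped.

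**Figure D1:**
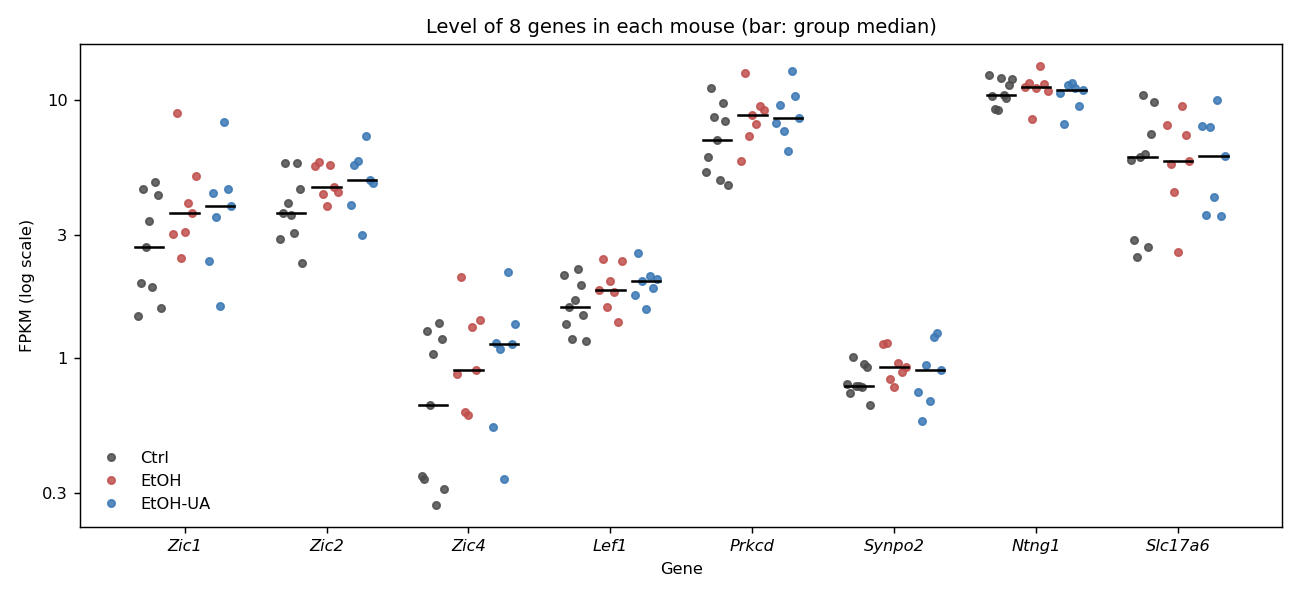
FPKM (log scale) of the 8 tested genes in each of the 23 mice, with points for mice and a bar for the group median. The groups overlap for every gene, and single EtOH and EtOH-UA mice stand at the top of Zic1 (8.89 and 8.18), Zic4 (2.06 and 2.15) and Prkcd (12.65 and 12.91).

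The comparison of EtOH with Ctrl mice asks whether the ethanol diet went with a change in these genes. None of the 8 tested members passed an adjusted p under 0.05 (limma on log2(FPKM + 0.1), Benjamini-Hochberg over 15985 genes), and the share of all genes called was 0%. At an unadjusted p under 0.05 the count was also 0 of 8, where 487 genes, 3.05% of those tested, passed. All 8 fitted differences were above 0, and 48.6% of all tested genes were higher in EtOH mice. The 5 largest differences on the log2 scale were 0.60 ± 0.35 (SE) for Zic4, 0.54 ± 0.31 for Zic1, 0.34 ± 0.17 for Zic2, 0.29 ± 0.18 for Prkcd and 0.22 ± 0.14 for Lef1, each with an adjusted p of 0.9988 in limma. The 95% confidence interval of the Zic1 difference ran from -0.10 to 1.17. For Synpo2 the difference was 0.18 ± 0.13, for Slc17a6 0.12 ± 0.31 and for Ntng1 0.04 ± 0.09. The interval for Ntng1, from -0.14 to 0.23, was the narrowest, and that for Slc17a6, from -0.53 to 0.77, was among the widest. Of the 8, 5 vary together between mice, so the shared sign is not 8 separate observations. A group of 3 Ctrl mice, 1 EtOH mouse and 2 EtOH-UA mice had a summed FPKM above 350000. Without these 6 mice, an alternative chosen after the data were seen, the difference between EtOH and Ctrl mice was 0.30 for Zic1, 0.28 for Zic4, 0.14 for Zic2 and 0.08 for Prkcd, whereas it was 0.33 for Lef1 and 0.39 for Slc17a6. Without the EtOH mouse of highest Zic1 the difference was 0.35 for Zic1, 0.44 for Zic4 and 0.19 for Prkcd.

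Markers of the ventricular lining were set beside these differences, and none of them was called. The summed FPKM of 8 ependymal genes, among them Foxj1, the regulator of motile cilia, ranged from 7.02 to 17.95 (Ctrl group, median 9.94), from 12.96 to 29.13 (EtOH group, median 17.98) and from 8.13 to 24.76 (EtOH-UA group, median 15.95). All 8 were higher in EtOH than in Ctrl mice, with a median log2 difference of 0.72. In limma 7 of them had an unadjusted p under 0.05 and 0 an adjusted p under 0.05. Over all tested genes, 3.05% passed the unadjusted threshold and 48.6% were higher in EtOH mice. Between mice 7 of the 8 vary with Zic1 (r above 0.5, described below), so these are not 8 separate observations. The sum of 7 choroid plexus genes ranged from 7.88 to 2977 FPKM in Ctrl mice, from 70.63 to 5763 in EtOH mice and from 16.02 to 7823 in EtOH-UA mice. The median log2 difference of the choroid plexus genes between EtOH and Ctrl mice was 1.77, with 7 of 7 higher and 0 called. Of 10 meningeal and fibroblast genes 5 were higher in EtOH mice, with a median of -0.01 and 0 called. In EtOH-UA against EtOH mice, 0 of the 8 ependymal genes were higher (median -0.37) and 0 of the 7 choroid plexus genes (median -0.49). Of the 10 meningeal genes 10 were higher, with a median of 0.12 and a lowest difference of 0.004. Again 0 were called, and 51.2% of all tested genes were higher in EtOH-UA mice. Between mice 8 of the 10 meningeal genes vary with Zic1 (r above 0.5), so these are not 10 separate observations. The part of these tissues in the differences of the Zic genes and Prkcd was not tested.

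With UA added to the ethanol diet, the members were close to their level in EtOH mice. Again 0 of 8 were called (0% of all genes), and 0 of 8 had an unadjusted p under 0.05, compared with 3.27% of the genes tested. The log2 differences of EtOH-UA from EtOH mice lay between -0.11 ± 0.33 (SE) for Zic1 and 0.05 ± 0.14 for Lef1, and 3 of 8 were above 0. The adjusted p-values in limma were between 0.90 for Ntng1 and 0.998 for Slc17a6. The intervals were wide for the variable genes, from -0.79 to 0.56 for Zic1, from -0.83 to 0.71 for Zic4 and from -0.69 to 0.68 for Slc17a6. They were narrower for Prkcd, from -0.34 to 0.45, and for Ntng1, from -0.29 to 0.10.

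Between EtOH-UA and Ctrl mice, a comparison that shares its Ctrl mice with the first and its EtOH-UA mice with the second, 0 of 8 members were called (0% of all genes) and 0 of 8 had an unadjusted p under 0.05 (3.08% of all genes). The log2 differences were 0.54 ± 0.35 (SE) for Zic4, 0.42 ± 0.31 for Zic1, 0.35 ± 0.17 for Zic2, 0.34 ± 0.18 for Prkcd and 0.28 ± 0.14 for Lef1, all with an adjusted p of 0.9991 in limma. Slc17a6 (0.12 ± 0.31), Synpo2 (0.08 ± 0.13) and Ntng1 (-0.05 ± 0.09) differed by less than their standard error. The lower bounds of the intervals were just below 0 for Zic2 and Lef1, at -0.003 and -0.004. Without the 6 mice of high summed FPKM the difference was 0.26 for Zic1, 0.32 for Zic4, 0.23 for Zic2, 0.17 for Prkcd and 0.54 for Slc17a6. Without the EtOH-UA mouse of highest Zic1 it was 0.23 for Zic1, 0.36 for Zic4 and 0.26 for Zic2.

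**Figure D2:**
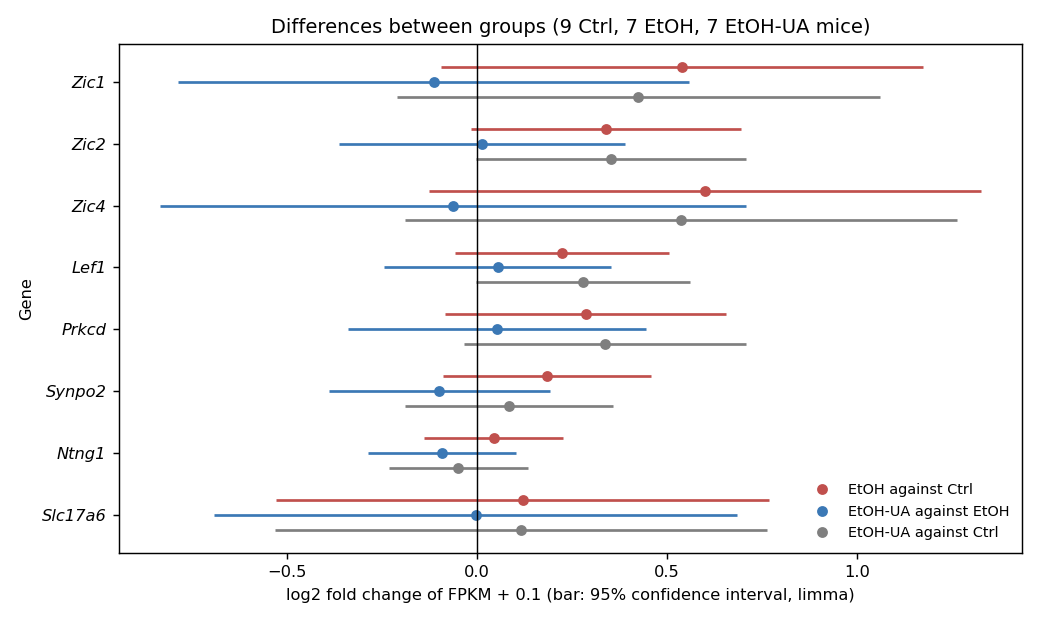
Log2 fold changes of FPKM + 0.1 for the 8 tested genes in the 3 comparisons; points are limma estimates and bars their 95% confidence intervals. All 24 intervals include 0, and those of Zic1, Zic4 and Slc17a6 are several times as wide as that of Ntng1.

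Between mice of the same group, 7 of the 8 tested members were more variable than the median tested gene. The SD of log2(FPKM + 0.1) about the group means was 0.75 for Zic4, 0.68 for Slc17a6, 0.66 for Zic1, 0.38 for Prkcd and 0.37 for Zic2, compared with a median of 0.19 over the 15985 tested genes. Zic4 exceeded 97.3% of the tested genes in this measure, Slc17a6 96.5%, Zic1 96.2%, Prkcd 86.0% and Zic2 84.3%. Lef1 (0.28) and Synpo2 (0.26) exceeded 72.9% and 68.8%. Ntng1, the most abundant member, had 0.18 and was below the median gene. These shares are over all tested genes and not over genes of a like level.

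The members did not vary as a septal and a thalamic group. Correlations are given over 23 deviations of log2(FPKM + 0.1) from the group means for all 28 pairs of the 8 tested members, as a description with no p. The 23 points are libraries, each of which contributes all genes, and differences between whole libraries are common to them. Zic1, Zic2, Zic4, Prkcd and Synpo2 varied together, with 10 pairs between r = 0.50 (Prkcd and Synpo2) and r = 0.96 (Zic1 and Zic4) and a median of 0.78. Zic1 and Prkcd, a septal and a thalamic marker, had r = 0.88, a Spearman rho of 0.86, and r = 0.86 without the 2 mice farthest from the median of Zic1. Zic1 and Zic2, which lie on different chromosomes, had r = 0.84 and rho = 0.81. Within the groups, the r of Zic1 with Prkcd came to 0.91 among Ctrl mice, 0.82 among EtOH mice and 0.94 among EtOH-UA mice. Zic2 and Prkcd had r = 0.95 in Ctrl and 0.80 in EtOH-UA mice but 0.05 in EtOH mice.

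Over all 23 mice Ntng1 and Slc17a6 formed a separate pair, with r = 0.60, rho = 0.63 and r = 0.60 without the 2 mice farthest from the median of Ntng1. Within the groups this r was 0.67 (Ctrl), 0.51 (EtOH) and 0.62 (EtOH-UA). Their 10 pairs with Zic1, Zic2, Zic4, Prkcd and Synpo2 lay between -0.30 and 0.11 (median -0.08). These low values did not hold in every group: the r of Zic2 with Slc17a6 was -0.68 among the 9 Ctrl mice and 0.76 among the 7 EtOH mice, that of Zic2 with Ntng1 -0.63 and 0.54, and that of Synpo2 with Slc17a6 -0.56 and 0.63. With 7 or 9 points each, whether the groups differ was not tested. Slc17a6 had r = -0.03 with Zic1 and r = -0.28 with Prkcd, which is also a marker of the thalamus. Over all mice Lef1 had r between -0.14 (Slc17a6) and 0.36 (Zic1), and its r with Zic1 was 0.01 in the Ctrl, 0.70 in the EtOH and 0.68 in the EtOH-UA group. Averaged over the tested members, the mean r was 0.88 for the 3 pairs of Zic genes, 0.09 for the 10 pairs of thalamic genes and 0.32 for the 15 pairs that cross the labels. With Isl1 and Lhx8 included, most of whose values are at or near 0, the septal mean was 0.35 and the mean across the labels 0.20. Without the EtOH-UA mouse of highest Zic1 the thalamic mean was 0.04.

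**Figure D3:**
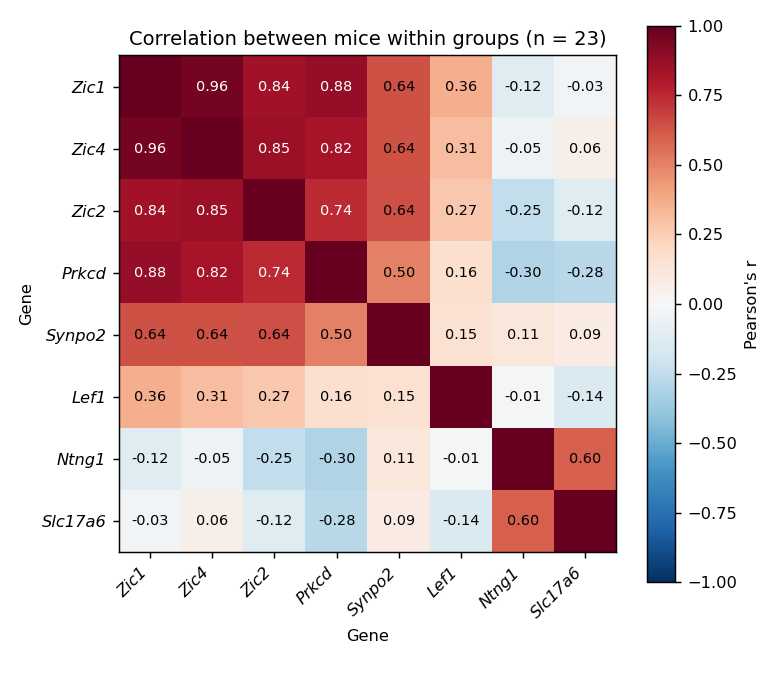
Pearson's r between 8 genes over 23 deviations of log2(FPKM + 0.1) from group means (red positive, blue negative). Zic1, Zic4, Zic2, Prkcd and Synpo2 form one block with r from 0.50 to 0.96, Ntng1 and Slc17a6 form a pair with r = 0.60, and Lef1 has r of at most 0.36 with any of them.

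Single mice showed the joint variation of the Zic genes and Prkcd, while their ranks in Ntng1 and Slc17a6 varied. The EtOH mouse with the highest Zic1 (8.89 FPKM) was also first of the 7 in Zic2, Zic4, Prkcd, Synpo2, Lef1 and Isl1, and ranked 2 in Ntng1 (11.62) and 5 in Slc17a6. The EtOH mouse with the lowest Zic1 (2.44 FPKM) was the lowest in Ntng1 (8.44). The lowest Zic1 mice of the Ctrl group (1.45 FPKM) and of the EtOH-UA group (1.59) were instead the highest of their groups in Ntng1 (12.48 and 11.66). Each of these mice of lowest Zic1 had a summed FPKM above 350000. Of the EtOH-UA mice, the one with the highest Zic1 (8.18 FPKM) was first in Zic2, Zic4, Prkcd, Isl1 and also in Slc17a6 (9.99), and ranked 3 in Ntng1. In the Ctrl group the mouse with the highest Zic1 (4.81 FPKM) had the eighth of 9 values of Slc17a6, 2.68 FPKM. The 3 Ctrl mice with a summed FPKM above 350000 had between 1.45 and 1.89 FPKM of Zic1, and the other 6 between 1.95 and 4.81. Prkcd in these 3 mice lay between 4.66 and 5.24 FPKM, below the other 6, which had 6.03 to 11.12. Their Slc17a6, 5.87 to 9.78 FPKM, was inside the range of the others.

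The summed FPKM of a library was inversely related to most members. It ranged from 330456 to 361354 in Ctrl mice, from 327896 to 366930 in EtOH mice and from 333801 to 404609 in EtOH-UA mice. Over the 23 deviations from group means on the log2 scale its r was -0.44 with Zic1, -0.50 with Zic4, -0.41 with Zic2, -0.40 with Prkcd and -0.68 with Synpo2. It was -0.33 with Ntng1, -0.31 with Slc17a6 and 0.17 with Lef1. Without the 2 mice farthest from the median of the sum, these values were -0.61, -0.69, -0.67, -0.57, -0.55, 0.27, -0.18 and 0.09. The EtOH-UA mouse with the highest sum had 4.34 FPKM of Zic1, the third of 7 values in its group, and the lowest Ntng1 (8.09) and Synpo2 (0.57). Over the 17 mice with a sum up to 350000 the 10 pairs of the block still had r between 0.49 and 0.94, and Ntng1 with Slc17a6 had r = 0.66. Lef1 was closer to Zic1 in these 17 mice, with r = 0.62.

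**Figure D4:**
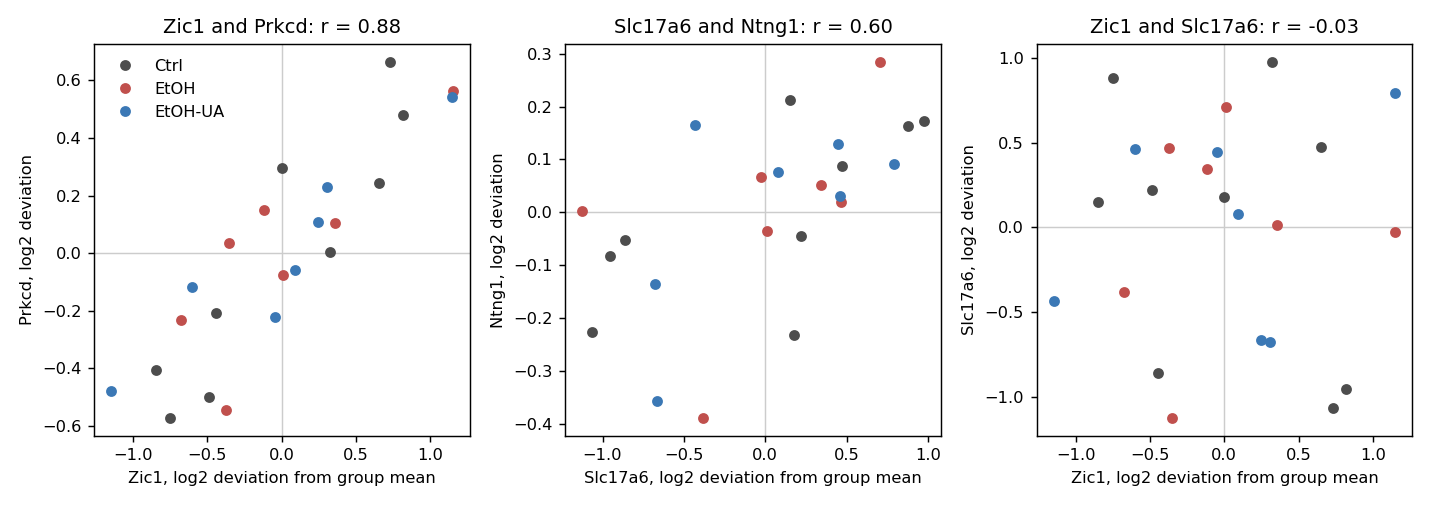
Deviations of log2(FPKM + 0.1) from the group mean for 3 pairs of genes, with 1 point for each of 23 mice. Zic1 and Prkcd lie along a line (r = 0.88), Slc17a6 and Ntng1 less closely (r = 0.60), and Zic1 and Slc17a6 show no line (r = -0.03).

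Lists of other marker genes were set beside the members to describe what else varied with them. Among 12 other genes of the septum and basal forebrain, 8 were tested, and 2 of the 8 had r above 0.5 with Zic1. The closer was Zic5 (r = 0.84; mean 0.809 FPKM), of the same family. Trpc4, a cation channel of lateral septal neurons that hippocampal neurons also express and the most abundant of the list (17.53 FPKM), had r = -0.24 with Zic1. Of 15 other thalamic genes 13 were tested, and 5 had r above 0.5 with Zic1 and 3 with Slc17a6. Adarb1, an RNA-editing enzyme and the most abundant of this list (29.32 FPKM), had r = 0.50 with Zic1 and 0.18 with Slc17a6. The closest relation in the list was that of Zfhx3, a homeobox factor at 0.320 FPKM, with Synpo2 (r = 0.91). Rgs16, Plcb4 and Rora were nearest to Slc17a6, with r of 0.73, 0.71 and 0.58. Tcf7l2, a factor of thalamic neurons from the same TCF/LEF family as LEF1, had r = 0.52 with Zic1, 0.44 with Lef1 and -0.05 with Slc17a6. For reference, 9.01% of the 15977 tested genes that are not members had r above 0.5 with Zic1, 6.77% with Prkcd, 5.56% with Ntng1 and 5.07% with Slc17a6.

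Genes of the ventricular lining and of the meninges varied with the Zic block. Of the 8 ependymal genes, 7 had r above 0.5 with Zic1 and 6 with Prkcd, with medians of 0.68 and 0.63, and 0 with Slc17a6. Ak7, an adenylate kinase of motile cilia, reached r = 0.86 with Zic4, and Rarres2, the most abundant of the list (6.39 FPKM), had r = 0.45 with Zic1. Of the 10 meningeal and fibroblast genes, 8 had r above 0.5 with Zic1 and 7 with Prkcd (medians 0.64 and 0.51), and again 0 with Slc17a6. The collagen gene Col3a1 had r = 0.86 with Zic4, while Dcn, the proteoglycan decorin and the most abundant of the list (29.72 FPKM), went the other way with r = -0.48 for Zic1. Of the 7 choroid plexus genes, 2 were above 0.5 with Zic1. Otx2, a homeobox factor of this tissue, had r = 0.67 with Zic4, and Ttr, the transthyretin gene with a mean of 1560 FPKM, had r = 0.35 with Zic1. The part of these tissues in the variation of the members was not tested.

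Some genes of the neocortex varied with Ntng1 and Slc17a6. Of the 8 neocortical genes, 3 had r above 0.5 with Slc17a6 and 4 with Ntng1: Tbr1, a transcription factor of glutamatergic cortical neurons, had r = 0.84 with Slc17a6, Foxp2 had 0.74 and Cux2, a factor of upper cortical layers, 0.69. Fezf2, a factor of deep-layer neurons, had r = 0.56 with Ntng1 and -0.60 with Zic1. Lamp5, the most abundant of the list (17.89 FPKM), had r = 0.31 with Slc17a6, and Rorb, a nuclear receptor, had -0.09. The median r of the list was 0.38 with Slc17a6 and 0.38 with Ntng1. Of the habenular list, 5 of 6 genes were tested, and Nr4a2, a nuclear receptor that is also expressed by cortical and claustral neurons (16.92 FPKM), had r = 0.74 with Slc17a6 and 0.71 with Ntng1. The medians of this list were 0.28 and 0.43. The 12 hippocampal genes had a median r of -0.12 with Slc17a6, from -0.71 (Amigo2) to 0.42 (Pou3f1), with Neurod6, the most abundant, at -0.59. With the Zic block, 1 of the 12 had r above 0.5 with Zic1 and 3 with Prkcd (medians 0.05 and 0.18). Those 3 were Prox1 (0.62), Iyd (0.62) and Dsp (0.51), and Prox1 had r = 0.62 with Zic4. Of the 10 striatal genes 1 had r above 0.5 with Zic1, namely Six3 (0.72; 0.277 FPKM), and Ppp1r1b (DARPP-32), the most abundant with 26.80 FPKM, had r = 0.08. Of the 5 tested hypothalamic genes, none had r above 0.5 with Zic1, Prkcd, Slc17a6, Ntng1 or Lef1, and the closest relation was that of Avp with Lef1 (r = 0.43). Their most abundant gene, Pomc, had a mean of 0.603 FPKM.

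Endothelium and oligodendrocytes showed weaker relations. Of the 6 endothelial genes, 0 had r above 0.5 with Zic1 or Slc17a6, and the closest was Flt1, a VEGF receptor, with Synpo2 (r = 0.57). Ly6c1, the most abundant of these (27.50 FPKM), had r = -0.33 with Zic1. Of the 6 myelin genes, 0 had r above 0.5 with these members, and Mbp, the most abundant at a mean of 938 FPKM, had r = 0.33 with Zic1.

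**Figure D5:**
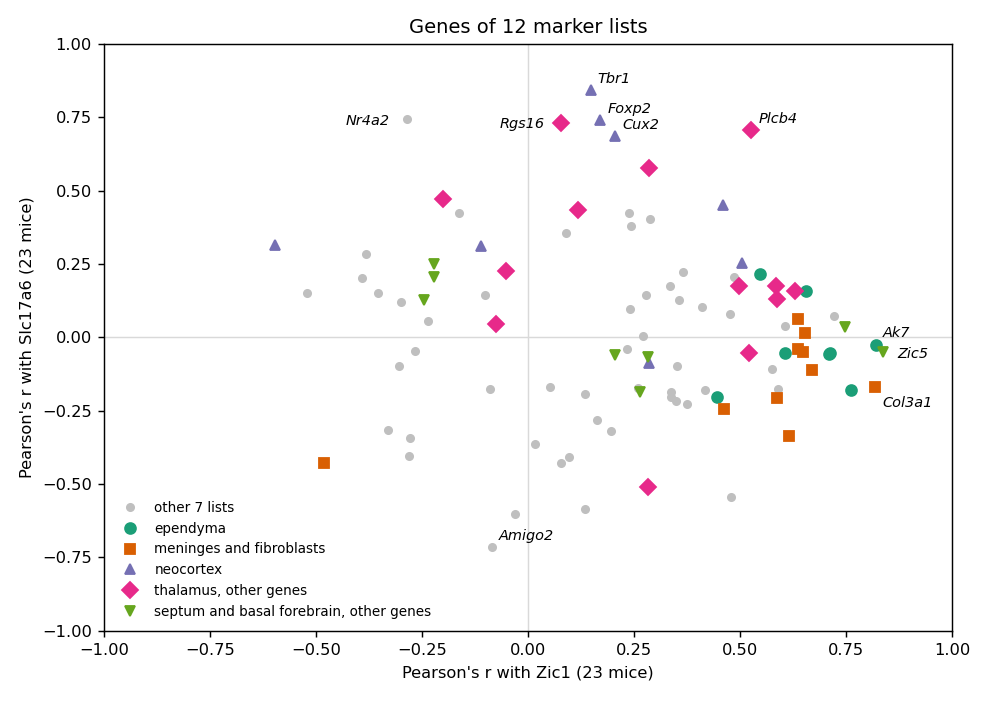
Pearson's r with Zic1 (horizontal) and with Slc17a6 (vertical) of each tested gene of 12 marker lists over 23 deviations from group means. Ependymal genes and all meningeal genes but Dcn lie to the right with r of Zic1 from 0.45 to 0.82, and Tbr1 (0.84 with Slc17a6), Nr4a2, Foxp2, Rgs16, Plcb4 and Cux2 lie at the top.

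Among 12898 genes that are not members and averaged 1 FPKM or more, those closest to Zic1 over the 23 mice were Sned1 (r = 0.84), Ak7 (0.82), Aebp1 (0.82), Bicc1 (0.81) and Gpr35 (0.81). Aebp1 encodes a protein of the extracellular matrix, Ak7 a cilium-associated kinase and Bicc1 an RNA-binding protein. Those closest to Prkcd were Card6 (r = 0.84), Car15 (0.82), Clmp (0.79), Atf6 (0.79) and Slc46a3 (0.78), of which Car15 is a carbonic anhydrase, Clmp an adhesion molecule and Atf6 a sensor of endoplasmic reticulum stress. Slc17a6 had closer companions than either, although these were looked up after its values were seen: Sytl2 (r = 0.92), Vwc2l (0.90), Ddit4l (0.89), Asap1 (0.89) and Plxdc1 (0.88). Without the 2 mice farthest from the median of Slc17a6, these 5 values were between 0.84 and 0.91.

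The lists gave no call between groups. For the 8 other septal genes the median log2 difference of EtOH from Ctrl mice was 0.12, with 8 of 8 above 0, and for the 13 other thalamic genes 0.11, with 11 of 13 above 0. Over all 15985 genes the median was -0.003. In EtOH-UA against EtOH mice the medians were -0.10 and -0.14, with 3 of 8 and 4 of 13 above 0. Between EtOH-UA and Ctrl mice they were 0.01 and -0.02, and the thalamic genes Tcf7l2 and Ramp3 had an unadjusted p under 0.05, with log2 differences of 0.27 and 0.31 and an adjusted p of 0.9991 each in limma.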

How the data were processed

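Hippocampal RNA of 23 mice (9 Ctrl, 7 EtOH, 7 EtOH-UA) was sequenced. Per the methods, poly(A)+ RNA was read on a BGISEQ instrument, filtered with SOAPnuke, aligned to mm10 with Bowtie2 and quantified with RSEM, and the labels name total RNA and an MGISEQ protocol. The submitters' processing notes also list HISAT2 2.1.0, Bowtie2 2.2.5, RSEM 1.2.8, StringTie and DESeq. The authors deposited FPKM to 2 decimals, scaled for transcript length and library size, in 1 table. Its columns were assigned to groups by name, and no 2 were identical. Mice are separate animals and are counted as replicates.

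Values were transformed as log2(FPKM + 0.1). The 15985 genes that averaged 0.1 FPKM or more were fitted with limma 3.58.1 (R 4.3.3), 3 groups in one model with an eBayes trend, with Benjamini-Hochberg adjustment and a threshold of 0.05. The count test of the methods needs counts. The pipeline was tested on simulated data. Correlations used deviations from group means. Promoter windows and coordinates come from RefSeq GRCm38.p6 (mm10 is GRCm38). The members, the 12 marker lists and the motifs were chosen with earlier results of these data known. All members are named, and from each list the most abundant gene and the one most correlated with any tested member. The 5 genes closest to Zic1 and the 5 closest to Prkcd are also named, and other list genes were named after their values were seen. Some genes of the lists are not reported here.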

Additional observations from a re-analysis of the deposited data

How the results depend on the processing

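The count of members called stayed at 0 of those tested in all 3 comparisons under 10 other settings and with each mouse left out in turn, and the smallest adjusted p of a member in limma was 0.554 (EtOH against Ctrl), 0.574 (EtOH-UA against EtOH) and 0.717 (EtOH-UA against Ctrl). The settings were pseudocounts of 1 and 0.01, no filter on low values and a filter at a mean of 1 FPKM (which leaves out Zic4 and Synpo2), upper-quartile scaling, quantile normalization, the mice of 2 groups only, robust eBayes, array quality weights and, added after the data were seen, the removal of the 6 mice with a summed FPKM above 350000. Small log2 differences changed sign, and the cause was not tested. In EtOH-UA against EtOH mice these were Zic2 under upper-quartile scaling (-0.0067), Slc17a6 under quantile normalization (0.0070), Zic4 (0.0053) and Slc17a6 (0.083) with array weights, and Zic4 (0.046), Synpo2 (0.044) and Slc17a6 (0.15) without the 6 mice, whose removal also turned Ntng1 in EtOH-UA against Ctrl mice (0.044). With each mouse left out, the differences of EtOH-UA from EtOH mice ranged from -0.31 to 0.077 for Zic1, from -0.080 to 0.13 for Zic2, from -0.24 to 0.15 for Zic4, from -0.015 to 0.11 for Lef1, from -0.038 to 0.15 for Prkcd and from -0.19 to 0.11 for Slc17a6. For EtOH against Ctrl mice they ranged from -0.0038 to 0.11 for Ntng1 and from -0.013 to 0.31 for Slc17a6, and for EtOH-UA against Ctrl mice from -0.079 to 0.0098 for Ntng1 and from -0.017 to 0.24 for Slc17a6. No other difference changed sign. Without single mice, Synpo2 in EtOH-UA against Ctrl mice ranged from 0.0045 to 0.17 and Zic1 from 0.23 to 0.62. The mean r of the septal members, with Isl1 and Lhx8 included, ranged from 0.31 to 0.36 over 6 settings. That of the thalamic members ranged from 0.016 to 0.14 and that between septal and thalamic members from 0.15 to 0.28. With each mouse left out the 3 ranges were 0.31 to 0.41, 0.035 to 0.12 and 0.15 to 0.23. They do not cover the mean of 0.88 for the 3 pairs of Zic genes alone. No paired analysis was possible because the columns carry mouse numbers and no replicate numbers. Isl1, Lhx8 and other genes near 0 are limited by the 2 decimals of the table. None of the 24 sets of values (8 genes in 3 groups) held a mouse apart from the others by Dixon's criterion at the 95% level.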
